A study of Homo sapiens with 6 samples.

Results

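The S100 proteins are small calcium-binding proteins, and the 10 genes described here are members of the family that squamous epithelium is known to use, not a full list: S100A2, S100A4, S100A6, S100A7, S100A8, S100A9, S100A10, S100A11, S100A14 and S100A16. They were chosen by name, with earlier results of these data known, and all 10 were found among the 58243 genes listed. Transcript levels came from 6 mRNA sequencing libraries of CAL27, an established human line of tongue squamous carcinoma cells. In 3 libraries the cells had received 30 mM metformin (a biguanide used against diabetes) for 48 h, and in 3 they had received phosphate-buffered saline (PBS) as vehicle. No other dose, time or cell line was analysed here, both groups grew in the same serum-containing medium, and whether each library had its own culture is not stated. The p-values therefore rest on library-to-library spread alone, and that spread may be technical.

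Most S100 proteins work as dimers in which each chain carries a pair of EF-hands, the helix-loop-helix motif that binds calcium. Binding of calcium exposes a surface that docks onto partners such as annexins. Some members are also secreted: S100A8 and S100A9 together form calprotectin, which sequesters metal ions from microbes and signals through TLR4 and RAGE. In squamous epithelium S100A2 is known from the basal layer, while S100A7, S100A8 and S100A9 are known as genes of stressed or inflamed epidermis. All 10 genes lie on chromosome 1 in the interval that also holds the epidermal differentiation complex, the cluster of cornified envelope genes.

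Values are FPKM (a fragment count divided by transcript length and by the mapped total), so levels of different genes can be compared per length. Each log2 change is the metformin mean less the PBS mean of log2(FPKM + 1), a scale that understates changes of low genes. A gene was called when its adjusted p was below 0.05 by limma with Benjamini-Hochberg adjustment over the 13437 genes averaging at least 1 FPKM, and all 10 S100 genes passed that filter. Estimated depth ran from 7807280 to 8861350 counted fragments per library, and the depth ranges of the groups overlapped. The first principal component of the tested genes took up 76.5% of the variance and set the groups apart. The epithelial identity of the cells was visible in both groups, with EPCAM at 103 ± 4.34 FPKM (SD, n = 3) with PBS and 130 ± 1.77 with metformin. The summed level of 10 squamous epithelial markers was lower with metformin, from 775 to 800.4 FPKM against 1361 to 1445 with PBS. Of the 10, 7 fell, 2 rose (EPCAM among them) and 1 was not called, against 25.2% lower and 31.0% higher among all tested genes. Most of the drop in the sum came from KRT5 and KRT14. KRT5 went from 355 ± 6.04 to 52.4 ± 4.19 FPKM, and KRT14 from 246 ± 17.4 to 12.9 ± 0.275. Markers of fibroblasts summed to 1.54 to 2.34 FPKM with PBS and 2.49 to 2.74 with metformin, and DCN was listed at 0. Markers of endothelium summed to 5.93 to 6.87 and 2.01 to 2.32, nearly all from CDH5, and KDR was listed at 0.

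Of the 10 genes, 6 fell with metformin, 1 rose and 3 were not called. Those that fell were S100A9, S100A7, S100A2, S100A8, S100A4 and S100A16, the gene that rose was S100A11, and S100A6, S100A10 and S100A14 were not called. Of all tested genes 56.2% were called, 31.0% higher and 25.2% lower. A fall of at least 1 on the log2 scale was called in 3 of the 10 (S100A9, S100A7 and S100A2) and in 4.74% of all tested genes. The median log2 change of the 10 genes was -0.47, and that of all tested genes was 0.06. In 7 of the 10 no metformin value fell inside the PBS range or the reverse, against 64.4% of all tested genes. Of these, 6 lay lower and 1 higher with metformin, against 28.7% and 35.7%. In bulk RNA, fewer cells that express a gene and less of its RNA per cell cannot be told apart.

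**Figure D1:**
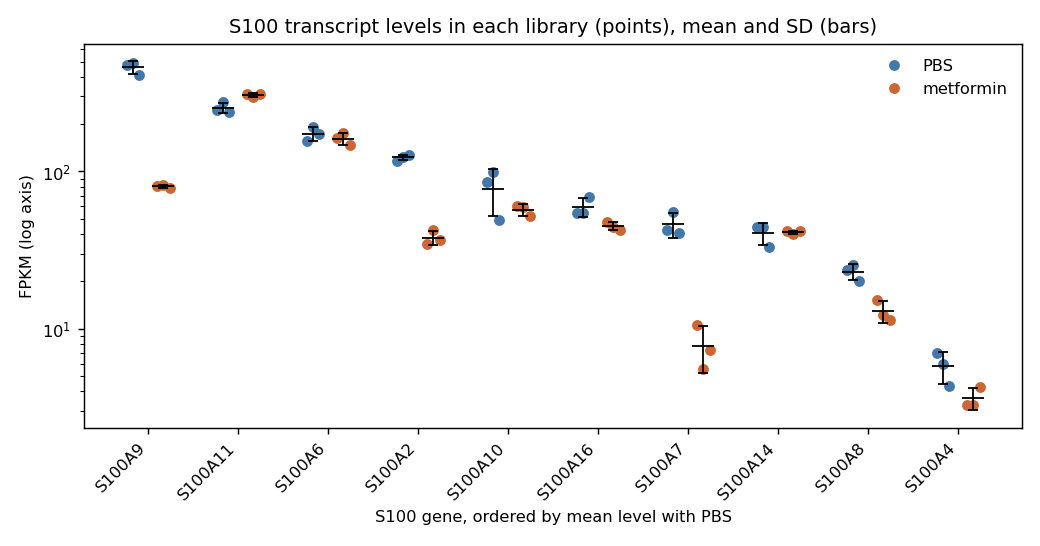
FPKM on a log axis for each S100 gene, with 1 point per library and bars for the mean and SD of the 3 libraries of a group. S100A9 drops from between 411 and 490 FPKM with PBS to between 78.2 and 82.3 with metformin, while S100A11 lies higher with metformin and the S100A6 and S100A14 groups overlap.

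The promoters of 5 of the 7 called genes are shown, so that the 4 with the largest falls can be set beside the gene that rose. Those of S100A4 and S100A16, which changed less, are described only. RefSeq promoter entries (GRCh38.p14) matched all 10 genes, 14 entries in all, and the 250 bases before each start were searched on both strands. Motifs were TATAAA (a strict form of the TATA box), TGANTCA (bound by AP-1), TTNCNNAA (a loose C/EBP site) and TGATGNAA (the C/EBP-ATF response element, which ATF4 binds). Capitals below mark matches to any of them, each line runs 5′ to 3′ towards the start, and S100A8 is shown from its second listed start, chosen after the search because it holds a match.
S100A9 (chr1:153357604-153357853, plus strand): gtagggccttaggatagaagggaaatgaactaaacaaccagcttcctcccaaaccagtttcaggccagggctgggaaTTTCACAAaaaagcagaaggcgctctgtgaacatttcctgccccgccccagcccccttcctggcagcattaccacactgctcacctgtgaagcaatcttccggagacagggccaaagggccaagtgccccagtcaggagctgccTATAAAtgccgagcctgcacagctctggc
S100A8 (chr1:153391074-153391323, minus strand): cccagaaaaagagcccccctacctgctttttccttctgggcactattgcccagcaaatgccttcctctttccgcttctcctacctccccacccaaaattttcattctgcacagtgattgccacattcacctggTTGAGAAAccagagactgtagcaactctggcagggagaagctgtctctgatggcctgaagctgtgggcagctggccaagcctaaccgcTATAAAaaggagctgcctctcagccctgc
S100A7 (chr1:153460652-153460901, minus strand): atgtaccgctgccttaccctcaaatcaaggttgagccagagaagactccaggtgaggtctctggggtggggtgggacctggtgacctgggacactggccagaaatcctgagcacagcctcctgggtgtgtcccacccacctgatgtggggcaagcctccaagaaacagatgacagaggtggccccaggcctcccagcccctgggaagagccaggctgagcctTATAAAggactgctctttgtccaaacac
S100A2 (chr1:153565845-153566094, minus strand): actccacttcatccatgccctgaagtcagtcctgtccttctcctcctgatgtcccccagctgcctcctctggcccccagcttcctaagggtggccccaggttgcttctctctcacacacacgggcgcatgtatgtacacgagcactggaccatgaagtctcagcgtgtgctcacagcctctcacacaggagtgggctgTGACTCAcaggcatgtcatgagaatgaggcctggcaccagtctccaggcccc
S100A11 (chr1:152037005-152037254, minus strand): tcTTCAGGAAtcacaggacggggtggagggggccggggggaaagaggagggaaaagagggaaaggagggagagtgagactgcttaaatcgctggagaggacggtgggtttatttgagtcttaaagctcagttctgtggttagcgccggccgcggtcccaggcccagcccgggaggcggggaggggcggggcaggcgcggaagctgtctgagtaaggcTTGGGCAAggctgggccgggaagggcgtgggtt
Counted from the start, TATAAA lay at -29 to -24 in S100A9, at -28 to -23 in S100A7 and at -29 to -24 for the second start of S100A8. Counted from the third start of S100A8, whose entry overlaps that of the second, the same S100A8 site lay at -126 to -121. TATAAA was also found at -31 to -26 in S100A4. That was 5 of the 14 entries, with the S100A8 site counted for both starts, and 3 of the 10 genes by first listed start. These 4 genes all fell, and no listed promoter of the other 6 held these exact letters, S100A2 and S100A16 among them. The promoters of S100A6 and S100A14, which were not called, hold the near match TATAAG, which was not searched for. The split therefore depends on the strict form and supports nothing about the falls. Of all 35116 listed promoters 10.7% held it in this window. TGANTCA was found in S100A2, at -52 to -46 of its first listed start, and in no other member (6.57% of all promoters). TTNCNNAA was found in 6 of the 14 entries (33.2% of all promoters), in S100A6, S100A8, S100A9, S100A11 and S100A16, and TGATGNAA in none (3.14% of all promoters). A match is a description of these letters and not evidence of binding.

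S100A9, the larger partner of calprotectin, was the most abundant of the 10 transcripts with PBS, and its fall and that of S100A7 were the largest of the 10. Which of them was larger depended on the scale: S100A7 fell more with a pseudocount of 0.1 (-2.59 against -2.51), after library rescaling (-2.54 against -2.48) and with quantile normalization (-2.44 against -2.41). S100A9 (ENSG00000163220.10, chromosome 1, 153357854 to 153361027, plus strand, GRCh38) had 477, 490 and 411 FPKM with PBS and 80.9, 82.3 and 78.2 with metformin. All metformin libraries lay far below all PBS libraries, and they differed little among themselves. The mean fell 5.71-fold, from 459 ± 42.2 to 80.5 ± 2.10 FPKM (SD, n = 3), with log2 change -2.49 and SE 0.07 (adjusted p = 2.02e-06 by limma). By mean level S100A9 ranked 26th of all listed genes with PBS and 341st with metformin.

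S100A8, its partner in calprotectin, was listed at a far lower level and fell less. S100A8 (ENSG00000143546.9, 153390032 to 153391188, minus strand) had 23.6, 25.3 and 20.03 FPKM with PBS and 15.3, 12.1 and 11.4 with metformin. The groups did not overlap, and metformin replicate 1 was the closest to the PBS libraries. The mean fell 1.78-fold, from 23.0 ± 2.68 to 12.9 ± 2.07, with log2 change -0.79 and SE 0.13 (adjusted p = 0.00206 by limma).

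The balance of the calprotectin transcripts differed between the groups. In the PBS libraries S100A9 exceeded S100A8 by 20.2-fold, 19.4-fold and 20.5-fold in FPKM, and in the metformin libraries by 5.29-fold, 6.78-fold and 6.87-fold. The log2 ratio of S100A8 to S100A9 went from -4.26 ± 0.04 to -2.56 ± 0.20 (SD, n = 3), and no metformin library overlapped the PBS range. An exact two-sided permutation test gave p = 0.10, the smallest that 3 against 3 libraries allow (adjusted p = 0.15 over the 3 ratios computed). This ratio lay higher with metformin by 1.71 on the log2 scale.

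S100A7, psoriasin, is an antimicrobial protein of inflamed epidermis. S100A7 (ENSG00000143556.8, 153457744 to 153460701, minus strand) had 42.6, 55.5 and 40.4 FPKM with PBS and 10.6, 5.51 and 7.28 with metformin. The groups did not overlap, although the metformin libraries varied with a coefficient of variation of 33.1%. The mean fell 5.93-fold, from 46.2 ± 8.18 to 7.79 ± 2.58, with log2 change -2.45 and SE 0.22 (adjusted p = 0.000147 by limma). With merged exons of 536 bases, its lowest value corresponded to about 25 fragments. Of its 30-base words 26.6% also occur in transcripts of other genes, mainly S100A7A (25.4%), so the level is uncertain to that extent. S100A7A itself was listed at 0.910 ± 0.288 FPKM with PBS and 0.179 ± 0.0820 with metformin, below the filter.

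The markers of myeloid cells, the other main source of S100A8 and S100A9, were low. Their summed level over 8 markers was 3.75 to 5.16 FPKM with PBS and 1.16 to 3.12 with metformin. MPO and CD33 were listed at 0 in every library, and the leukocyte gene PTPRC was at most 0.212. CD14 made up most of the sum with PBS, at 3.71 ± 1.09 FPKM with PBS and 0.942 ± 0.135 with metformin. It passed the filter only through the PBS libraries, so these values are a description only. Its part in the S100A8 and S100A9 results was not tested.

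S100A2, a nuclear member of the family known from basal cells and as a target of p63, was among the 3 largest falls. S100A2 (ENSG00000196754.10, 153561108 to 153567890, minus strand) had 117, 123 and 128 FPKM with PBS and 34.7, 42.4 and 36.7 with metformin. The PBS libraries were tight, with a coefficient of variation of 4.33%, and no metformin library came near them. The mean fell 3.24-fold, from 123 ± 5.32 to 37.9 ± 4.02, with log2 change -1.67 and SE 0.08 (adjusted p = 1.18e-05 by limma).

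S100A4, which binds non-muscle myosin and is known from migrating cells, was the least abundant of the 10. S100A4 had 7.03, 5.92 and 4.35 FPKM with PBS and 3.29, 3.25 and 4.27 with metformin. The lowest PBS value and the highest metformin value were almost equal, so the groups barely separated. The mean went from 5.76 ± 1.35 to 3.60 ± 0.579, with log2 change -0.54 and SE 0.17 (adjusted p = 0.0282 by limma). The call was lost without PBS replicate 1 or 2 or metformin replicate 1 or 2 (adjusted p from 0.0767 to 0.0836), with a replicate block (0.0652) and with no level filter (0.0688).

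S100A16, a broadly expressed member, fell slightly. It had 54.2, 54.7 and 68.7 FPKM with PBS and 47.7, 44.2 and 42.7 with metformin. PBS replicate 3 lay above the other PBS libraries, and the groups did not overlap. The mean fell 1.32-fold, from 59.2 ± 8.22 to 44.8 ± 2.55, with log2 change -0.39 and SE 0.10 (adjusted p = 0.0153 by limma). Without metformin replicate 3 the change was -0.35 and no longer called.

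S100A11, a partner of annexin A1 with a known part in keratinocyte growth control, was the only one of the 10 called higher. S100A11 (ENSG00000163191.5, 152032506 to 152047907, minus strand) had 245, 276 and 239.7 FPKM with PBS and 312, 297 and 313 with metformin. Every metformin library exceeded every PBS library. The mean rose 1.21-fold, from 253 ± 19.5 to 307 ± 9.28, with log2 change 0.28 and SE 0.06 (adjusted p = 0.00754 by limma). The call was lost without both libraries numbered 3 (log2 change 0.23, adjusted p = 0.0657), an alternative chosen after the data were seen. S100A11 shares 7.69% of its 30-base words with transcripts of other genes, among them the pseudogenes S100A11P1 and S100A11P2.

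S100A10, known as p11 and as the partner of annexin A2 at the plasma membrane, is a member whose EF-hands do not bind calcium. It had 86.2, 98.6 and 48.9 FPKM with PBS and 60.3, 59.6 and 51.7 with metformin. PBS replicate 3 lay below all metformin libraries, while the other two PBS libraries lay above them. The log2 change was -0.38 (95% interval -0.97 to 0.20, limma adjusted p = 0.226). Without PBS replicate 3 it was -0.68 and called (adjusted p = 0.00244), so this 1 library decided the call. Without PBS replicate 2 it was -0.18 (adjusted p = 0.547 by limma).

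S100A6, calcyclin, is a member abundant in proliferating epithelial cells. It had 157, 192 and 174 FPKM with PBS and 162, 175 and 147 with metformin. The groups overlapped, and the log2 change was -0.11 (95% interval -0.33 to 0.11, limma adjusted p = 0.350). Its sign turned with quantile normalization (0.10). S100A6 shares 23 exon bases with the antisense gene BX470102.1, which was at 1.32 FPKM with PBS and 0.964 with metformin.

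S100A14, a member enriched in epithelia, had 44.4, 44.5 and 33.3 FPKM with PBS and 41.8, 40.0 and 41.5 with metformin. The metformin libraries lay inside the PBS range, in which replicate 3 was again the lowest. The log2 change was 0.03 (95% interval -0.25 to 0.30, limma adjusted p = 0.863), and its sign turned under median-of-ratios scaling (-0.052) and without PBS replicate 3 (-0.11).

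**Figure D2:**
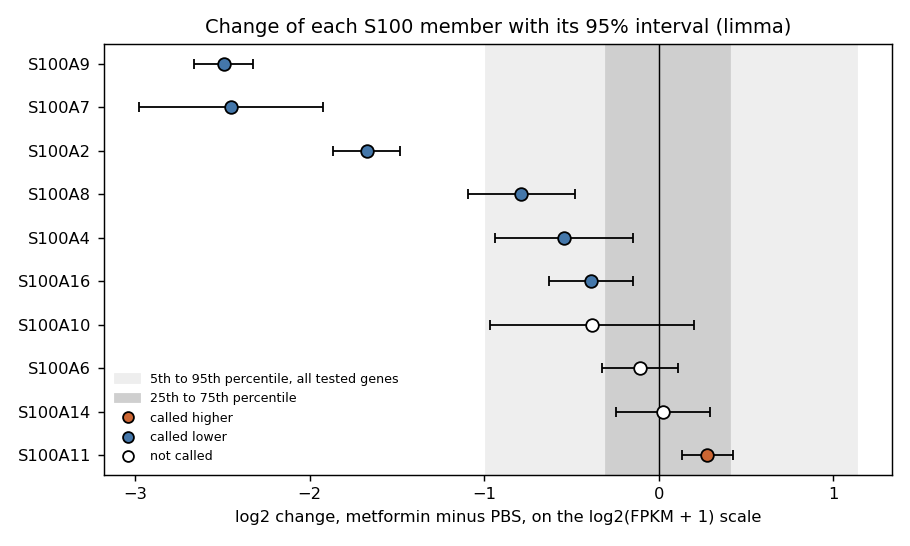
Log2 change of each S100 gene on the log2(FPKM + 1) scale with its 95% interval from limma, over bands for the 5th to 95th and 25th to 75th percentiles of all tested genes. S100A9, S100A7 and S100A2 lie left of the wider band, and the intervals of S100A10, S100A6 and S100A14 cross 0.

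The order of the levels changed with the falls. With PBS, S100A9 led at 459 FPKM, followed by S100A11 (253), S100A6 (174) and S100A2 (123), and none of these neighbours overlapped. S100A10, S100A16, S100A7 and S100A14 followed between 77.9 and 40.7 FPKM, and each overlapped the next. S100A8 and S100A4 were the lowest, at 23.0 and 5.76. With metformin, S100A11 led at 307 FPKM and S100A6 came next at 162, with S100A9 the third at 80.5. S100A14 and S100A2 were the only neighbours whose values overlapped with metformin, at 41.1 and 37.9. S100A7 stood between S100A8 and S100A4, the other two lowest.

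The 10 genes together summed to 1262 ± 99.0 FPKM with PBS and 755 ± 18.4 with metformin (SD, n = 3). That was 0.613% ± 0.0421 and 0.374% ± 0.00745 of all FPKM. The share of S100A9 in the sum was 36.4% ± 1.48 with PBS and 10.7% ± 0.146 with metformin. S100A11 made up 20.1% ± 0.505 with PBS and 40.7% ± 1.83 with metformin. The sum is dominated by a few abundant members and carries no test, since the genes were chosen with results of these data known.

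**Figure D3:**
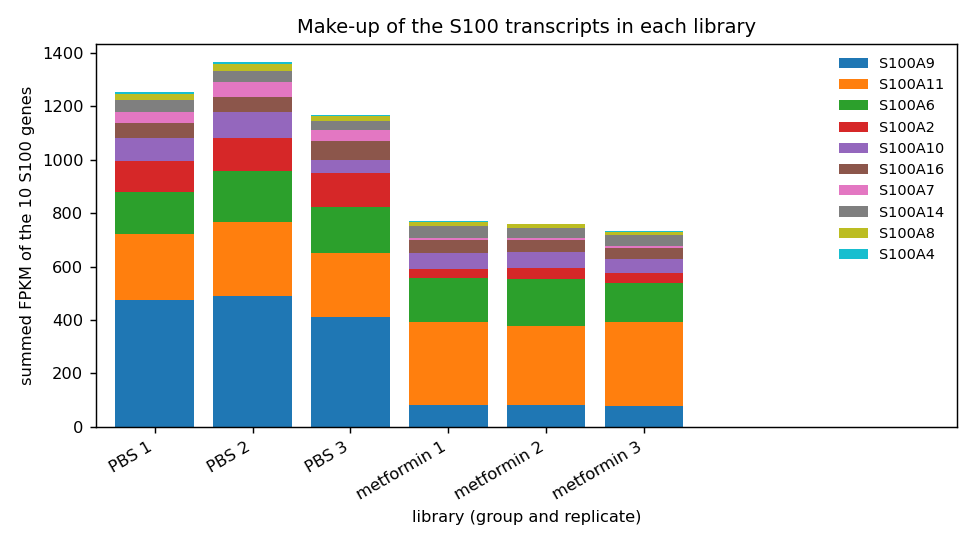
Stacked FPKM of the 10 S100 genes in each library, with the libraries on the horizontal axis. The metformin bars end between 734 and 769 FPKM and the PBS bars between 1168 and 1365, and the S100A9 segment shrinks most.

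Of 16 listed binding partners 14 were tested, 2 were higher, 6 lower and 6 not called, against 31.0% higher and 25.2% lower among all tested genes. The share called either way was near the 56.2% of all tested genes, and the median log2 change was -0.01 against 0.06. ANXA1, the annexin that S100A11 binds, rose 2.71-fold from 121 ± 2.30 to 327 ± 10.2 FPKM, with log2 change 1.43 and SE 0.04 (adjusted p = 2.02e-06 by limma). ANXA2, the annexin that S100A10 binds, was at 93.6 ± 1.74 with PBS and 90.5 ± 6.33 with metformin (adjusted p = 0.507 by limma). ANXA5, a phospholipid-binding annexin, rose 1.54-fold. CACYBP, which encodes the calcyclin-binding protein that S100A6 binds, fell 2.21-fold from 28.2 ± 1.83 to 12.8 ± 0.621. ANXA11 and FABP5 fell 1.96-fold and 1.60-fold. AHNAK, a scaffold of the S100A10 and annexin A2 complex, had 1.53 FPKM in PBS replicate 2 and between 28.8 and 44.5 in the other libraries, and was not called.

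Within libraries, the ratio of S100A11 to ANXA1 went the opposite way from S100A11 itself. S100A11 exceeded ANXA1 by 2.07-fold, 2.28-fold and 1.95-fold in FPKM with PBS, and was 0.931, 0.901 and 0.992 of it with metformin. The log2 ratio went from 1.06 ± 0.11 to -0.09 ± 0.07 (SD, n = 3; exact two-sided permutation p = 0.10, adjusted p = 0.15). The ratio of S100A10 to ANXA2 was 0.906, 1.05 and 0.533 with PBS and 0.672, 0.613 and 0.611 with metformin. PBS replicate 3 again lay apart, and the groups overlapped (exact two-sided permutation p = 0.40).

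**Figure D4:**
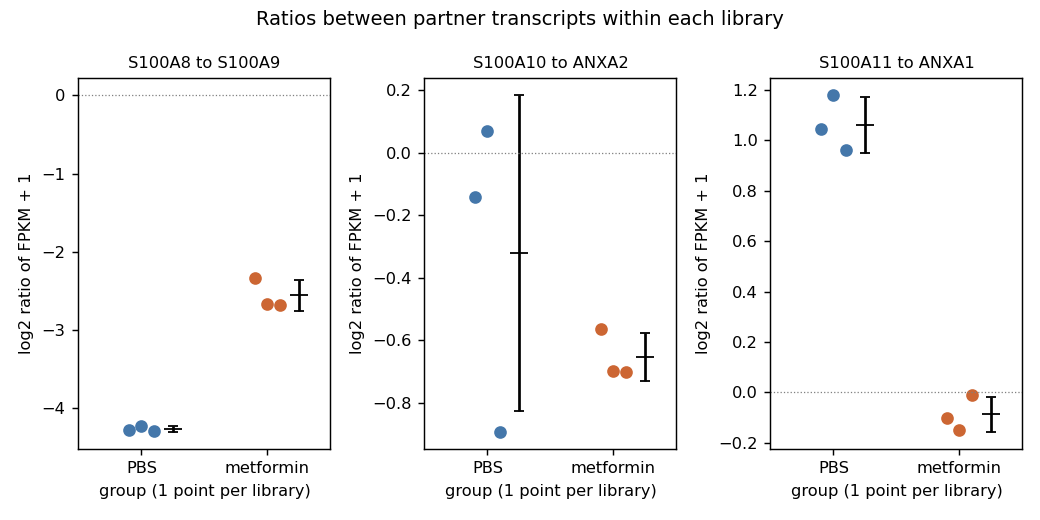
Log2 ratio of FPKM + 1 between partner transcripts in each library, with the mean and SD of each group of 3 at the side. The S100A8 to S100A9 ratio lies higher with metformin, the S100A11 to ANXA1 ratio lies lower, and the S100A10 to ANXA2 ratios overlap.

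Of 7 receptor genes 5 were tested, 3 were higher and 0 lower by limma, against 31.0% and 25.2% of all tested genes. TLR4, the receptor that calprotectin activates, rose 2.65-fold from 1.93 ± 0.1004 to 5.12 ± 0.143 FPKM (limma adjusted p = 4.71e-05). ALCAM, a cell adhesion receptor, rose 1.79-fold from 37.9 ± 11.97 to 68.0 ± 15.2, with replicate 2 the lowest in both groups. AGER, which encodes RAGE, was at 2.15 ± 0.771 with PBS and 2.50 ± 0.140 with metformin, and BSG, a receptor of S100A9, was at 122 ± 4.85 and 129 ± 2.20. Neither was called.

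Of 15 transcription factor genes known to act on S100 genes, 8 were higher, 3 lower and 4 not called, against 31.0% higher and 25.2% lower among all tested genes. Their median log2 change was 0.46, and that of all tested genes was 0.06. GRHL3, among the 8, was at 0.469 ± 0.182 FPKM with PBS and 2.56 ± 0.172 with metformin. It passed the filter only through the metformin libraries, so the tally and the median are a description only. The AP-1 subunit genes JUN and FOSL1 rose 2.96-fold and 2.14-fold, JUN from 28.8 ± 1.60 to 85.4 ± 2.58 FPKM. NFE2L2, the antioxidant regulator NRF2, rose 2.61-fold, and CEBPB rose 1.85-fold from 71.2 ± 8.43 to 132 ± 2.40. CEBPD, of the same family, fell 1.59-fold from 46.9 ± 4.51 to 29.6 ± 4.05 (adjusted p = 0.00255 by limma). KLF4, a regulator of epidermal differentiation, rose 2.64-fold with wide spread, with 23.7, 8.52 and 21.8 FPKM in the metformin libraries. TP63, the master regulator of squamous cells, fell 1.34-fold, from 17.5 ± 1.23 to 13.1 ± 0.426 (limma adjusted p = 0.00286).

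Among the 11 other S100 genes, 3 passed the filter. S100A3, which neighbours S100A4, had 6.91, 6.07 and 5.78 FPKM with PBS and 1.13, 2.89 and 3.18 with metformin, with log2 change -1.15 and SE 0.25 (adjusted p = 0.00752 by limma). S100P, which lies on chromosome 4 outside the cluster, was at 0.180 ± 0.0557 with PBS and 2.11 ± 0.488 with metformin, and passed the filter only through the metformin libraries. S100A13 was not called, at 10.3 ± 2.56 and 8.40 ± 1.45. S100A1, S100A5, S100A7A and S100A12 were under the filter, and S100B, S100G, S100Z and S100A7L2 were listed at 0 in every library. A listed 0 is not read as absence here, since the 37 genes of mitochondrial DNA were listed at 0 as well. Over the whole family of 21 protein-coding genes, 13 were tested, 7 were called lower and 2 higher, S100P being 1 of these 2, against 25.2% and 31.0% of all tested genes.

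The interval on chromosome 1 from S100A10 to S100A1 (151982915 to 153632039) holds 63 protein-coding genes, 46 of them outside the S100 family. Of these 46, 9 passed the filter, and 7 of the 9 did so only through the group in which they are high, so their directions are given as values and their tally supports nothing. These were CRCT1, LCE3D, SPRR2D, SPRR2A, SPRR2E and SPRR2G, which averaged 0 to 0.795 FPKM with PBS, and PGLYRP4, which averaged 0.114 with metformin. SPRR1A and SPRR1B averaged above 1 FPKM in both groups and were called higher by at least 1 on the log2 scale, as were 6.51% of all tested genes. SPRR1A, a precursor of the cornified envelope, rose from 13.1 ± 1.37 to 37.4 ± 2.89 FPKM. SPRR2D, another, was at 0.795 ± 0.425 with PBS and 12.7 ± 1.78 with metformin, SPRR2E at 0.668 ± 0.321 and 9.59 ± 2.25, and SPRR2A at 0.342 ± 0.0207 and 6.88 ± 0.825. PGLYRP4, a peptidoglycan recognition protein named after its value was seen, was at 2.12 ± 0.529 with PBS and 0.114 ± 0.0133 with metformin. It is the tested gene next to S100A9, and S100A9, S100A8 and S100A7 follow it in order along the chromosome. The S100-fused genes of the interval, which carry an S100 domain ahead of long repeats, were all 7 under the filter, with HRNR the highest at 0.483 ± 0.0716 and 0.971 ± 0.218.

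**Figure D5:**
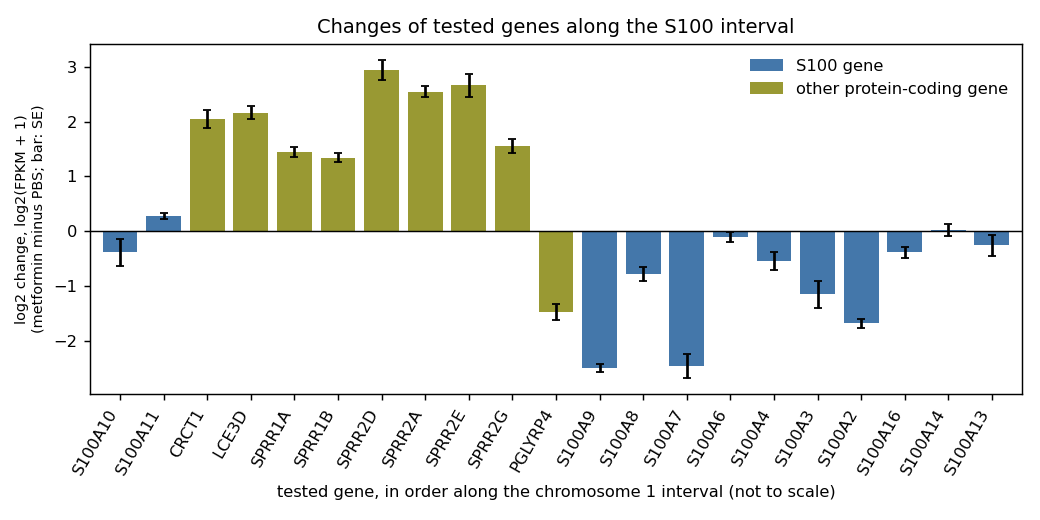
Log2 change with its SE for the 21 tested protein-coding genes of the chromosome 1 interval, in chromosomal order and not to scale. SPRR1A and SPRR1B point up and S100A9, S100A8 and S100A7 point down. The bars of CRCT1, LCE3D, SPRR2D, SPRR2A, SPRR2E, SPRR2G and PGLYRP4 belong to genes that passed the filter only through the group in which they are high.

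The genes whose pattern over the 6 libraries was most like that of S100A9 were CXCL10, ZBED6CL, CFB, PADI3 and ARHGDIB. Likeness was the root-mean-square distance of centred log2(FPKM + 1) values, and it ran from 0.0813 for CXCL10 to 0.115 for ARHGDIB. CXCL10, an interferon-induced chemokine, went from 10.5 ± 1.30 to 1.02 ± 0.214 FPKM. In FPKM that was a 10.3-fold fall, against 5.71-fold for S100A9, so its likeness holds only on a scale that understates changes of low genes. CFB, complement factor B, went from 45.5 ± 3.11 to 6.27 ± 0.358, and PADI3, a peptidyl arginine deiminase of epidermis, from 30.8 ± 1.44 to 3.89 ± 0.0925.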

How the data were processed

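Libraries were made from total RNA with a VAHTS mRNA-seq kit, per the labels' protocols. The values are FPKM, 1 for each gene in each library, as the authors deposited them, with the genome build GRCh38 per the submitters' processing notes. The aligner, quantification tool, strand setting and annotation were not given in the sources used here. Symbols came from GENCODE 29 by identifier without version, which named 57980 of 58243 genes. Depth was estimated from the steps of low values in single-transcript genes. FPKM is relative to all mapped fragments, so a change of abundant genes moves the others.

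Values were fitted as log2(FPKM + 1) with limma 3.58.1 in R 4.3.3 (intensity trend, group as the only term, two-sided). Genes averaging under 1 FPKM were left out. The script was tested on simulated data. Other steps used Python 3.11.15, pandas 2.3.3, NumPy 2.4.6, SciPy 1.17.1 and matplotlib 3.10.9. Intervals are 95%. The S100 genes and gene lists were chosen with earlier results of these data known. From the lists, up to 6 called genes that averaged 5 FPKM or more in either group are named, and from the interval up to 4 in each direction. ANXA2, AHNAK, AGER, BSG, CEBPD, GRHL3, TP63, SPRR1B, S100P, S100A13, S100A7A, HRNR, PGLYRP4 and the cell type markers fall outside that rule and were named after their values were seen. A gene counted in these lists is not reported by name here. No 2 libraries shared more than 2 identical values above 0. Alternatives were pseudocounts, level filters, scalings, a replicate block, limma settings, protein-coding genes alone and leaving out libraries.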

Additional observations from a re-analysis of the deposited data

How the results depend on the processing

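S100A2, S100A7, S100A8 and S100A9 kept their direction and their call under all 18 alternatives, S100A9 with log2 changes from -2.57 to -2.41 and S100A8 from -0.90 to -0.71. The count of S100 genes called lower ranged from 5 to 7 with 1 library left out, and the count called higher stayed at 1. Without both libraries numbered 3 the latter was 0, since S100A11 was no longer called. The sign of S100A6 turned with quantile normalization (0.10). That of S100A14 turned under median-of-ratios scaling (-0.052), with 1 library left out (from -0.11 without PBS replicate 3 to 0.094) and without both libraries numbered 3 (-0.12). S100A10 was called without both libraries numbered 3 (-0.61). Of all genes, 7549 of 13437 were called, 4738 of 7388 with a filter at 5 FPKM, and 6663 to 6886 with 1 library left out. As a share of protein-coding FPKM alone, the 10 genes made up 0.690% with PBS and 0.422% with metformin. With the replicate number as a block, 7139 genes and 5 of the S100 genes as lower were called, S100A4 being lost (adjusted p = 0.0652). Deviations of same-numbered libraries from their group means correlated between -0.0105 and 0.0304, so no shared deviation by number was seen over the tested genes. Whether same-numbered libraries were prepared together is not stated, and these correlations cannot show it. Low depth limits S100A4 and S100A7, whose lowest values corresponded to about 27 and 25 fragments.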
